A study of Mus musculus with 14 samples.

Results

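Open chromatin at 4 mouse genes, Cux2, Trim24, Onecut1 and Onecut2, was followed through loss of the pituitary and a single pulse of growth hormone (GH). All DNase-seq peaks that overlapped the body of one of these genes, or lay within 10 kb upstream of its start, were taken from the peak lists of 14 liver libraries and merged where they shared at least 1 bp. This gave 28 of the 48148 regions of the whole series, with 9 at Cux2, 8 at Trim24, 2 at Onecut1 and 9 at Onecut2. The choice used no measured value other than that a peak had been called in at least 1 library.

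The livers came from CD-1 (ICR) mice aged 7 weeks. There were 4 libraries of pituitary-intact females, 2 of hypophysectomized (hypox) females, 2 of hypox males without GH, and 2 each of hypox males killed 30, 90 or 240 min after 1 intraperitoneal injection of recombinant rat GH at 125 ng per g body weight. Each library pooled DNA released by DNase I from 3 livers, except hypox female pool 1, which held 2, so a replicate is a pool of animals. All hypox groups also lack the other pituitary hormones. The labels do not make clear whether the untreated hypox males received vehicle. Both of their libraries carry the code G103 in their titles, which no GH library does, so code and GH cannot be told apart in comparisons with them. The hypox females and all GH libraries carry G92 and served as a further comparison. There the GH libraries are all male, so sex and GH cannot be told apart. Intact female pools 1 and 2 also carry G92, while pools 3 and 4 carry G93, which no hypox library does. Intact males were not analysed here.

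In rodents GH is secreted in pulses in males and almost continuously in females, and the liver reads this pattern through the GH receptor, the kinase JAK2 and the transcription factor STAT5b. CUX2 is a CUT homeobox protein found mainly in the female liver, where it represses many male-biased genes and activates some female-biased ones. TRIM24 is a nuclear receptor cofactor, also reported as more abundant in female mouse liver, and mice that lack it develop liver tumours. ONECUT1, also called HNF6, and its relative ONECUT2 carry a CUT domain as CUX2 does and act in hepatocyte and bile duct development. In rat liver, GH raises HNF6, and HNF6 acts on a female-specific Cyp2c gene.

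The DNA under 6 of these regions is shown first, since the comparisons turn on them. Each line gives 200 bases around the summit, 5′ to 3′ on the plus strand of mm9, and a region is named by the distance in kb from the gene start to its summit. Capitals mark matches on either strand to the STAT5 core TTCNNNGAA, the HNF6 (ONECUT) core ATCAAT, or the CUX core ATCGAT.
Trim24 +42.8 kb, chr6:37863556-37863755: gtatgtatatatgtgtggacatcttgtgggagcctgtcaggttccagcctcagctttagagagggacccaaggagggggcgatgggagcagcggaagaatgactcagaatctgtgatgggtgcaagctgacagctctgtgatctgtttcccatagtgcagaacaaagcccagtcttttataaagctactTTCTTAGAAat
Cux2 +30.6 kb, chr5:122469421-122469620: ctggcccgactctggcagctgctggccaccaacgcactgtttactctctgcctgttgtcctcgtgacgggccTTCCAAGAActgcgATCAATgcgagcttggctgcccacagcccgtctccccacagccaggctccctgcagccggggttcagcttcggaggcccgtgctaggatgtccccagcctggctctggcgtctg
Cux2 +51.0 kb, chr5:122449032-122449231: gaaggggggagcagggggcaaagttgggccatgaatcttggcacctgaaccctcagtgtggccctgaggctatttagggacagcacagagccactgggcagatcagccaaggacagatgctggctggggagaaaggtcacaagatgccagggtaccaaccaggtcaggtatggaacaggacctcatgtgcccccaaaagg
Cux2 +32.8 kb, chr5:122467184-122467383: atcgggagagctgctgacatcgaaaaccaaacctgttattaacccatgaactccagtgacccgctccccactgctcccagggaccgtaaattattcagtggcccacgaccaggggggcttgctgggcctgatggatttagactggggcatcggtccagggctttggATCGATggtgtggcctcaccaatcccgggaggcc
Cux2 +23.6 kb, chr5:122476364-122476563: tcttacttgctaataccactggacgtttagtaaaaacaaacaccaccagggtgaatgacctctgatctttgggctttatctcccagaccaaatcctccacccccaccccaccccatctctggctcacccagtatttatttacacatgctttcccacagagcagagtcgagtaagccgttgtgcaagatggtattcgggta
Onecut1 +5.0 kb, chr9:74714584-74714783: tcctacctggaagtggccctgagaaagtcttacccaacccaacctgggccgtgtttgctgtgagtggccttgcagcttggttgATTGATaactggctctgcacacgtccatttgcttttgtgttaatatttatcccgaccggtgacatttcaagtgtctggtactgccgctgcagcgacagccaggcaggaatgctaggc
Trim24 +42.8 kb was called in every GH library and in no untreated hypox library. The 4 Cux2 windows are those with the highest signal in intact females, 1 of which was called there only. Onecut1 +5.0 kb was called in all 14 libraries. These windows and every other region of the series were searched in the same way. The STAT5 core lay in 9.16% of all 48148 windows and in 3 of the 28, namely Trim24 +42.8 kb, Cux2 +30.6 kb and Onecut2 -1.5 kb. The HNF6 core lay in 10.4% of all windows and in 8 of the 28, and the CUX core in 1.52% and in 3, namely Cux2 +32.8 kb, Cux2 +101.5 kb and Onecut2 +5.5 kb. Cux2 +30.6 kb held a STAT5 and an HNF6 match within a few bases of each other, and Cux2 +51.0 kb and Cux2 +23.6 kb held none of these 3 cores.

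The regions were read on the scales the authors' peak caller gave. Pileup is the number of extended DNase cuts stacked at the summit, here given per 1000000 tags of the library and called normalized pileup. Fold enrichment is the authors' ratio of that pileup to the local background. Neither exists where no peak was called, and no call means only that a region did not pass at that depth. Libraries held 13078268 to 33700120 tags and 17691 to 35851 peaks, and the lowest normalized pileup of any called peak was 0.386 to 0.546 across libraries. Y chromosome peaks numbered 1 to 3 in female and 63 to 91 in male libraries, as their labels state. A pair of libraries stood apart. Intact female pool 3 lacked 3790 of the 11213 regions called in all 13 other libraries, 87.73% of them at promoters, and it lacks the promoter peaks of Trim24, Onecut1 and Onecut2. GH 240 min pool 1 had the highest median normalized pileup over regions called in all libraries, 4.34 against 2.17 to 3.99, and it called 23.3% of the 604 regions that all intact pools and no other hypox library called, against 0.857% to 14.1% in other hypox libraries.

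All 6 hepatocyte marker genes had at least 1 region called in each of the 14 libraries. Of the other cell types, 2 of 6 cholangiocyte markers, 6 of 6 endothelial, 3 of 5 stellate, 1 of 5 Kupffer and 1 of 4 lymphocyte markers had any region. The summed normalized pileup of the cholangiocyte markers, from regions of Sox9 and Spp1 alone, was 0.976 to 1.63 in hypox males, 1.09 to 1.86 in hypox females, 3.67 to 3.82 at 30 min, 3.01 to 4.43 at 90 min and 0.955 to 1.67 at 240 min after GH, and 0.653 to 3.62 in intact females. The other 4 (Krt19, Krt7, Epcam and Cftr) had no region in any library. In this sum all 4 pools at 30 and 90 min lay above every other hypox library, as they did for Trim24 +42.8 kb and Onecut2 -1.5 kb below. The 1 marker region that could be tested against untreated hypox males did not follow the sum. Its log2 difference was -0.089 at 30 min and -0.009 at 90 min, beside medians of -0.141 and -0.047 over all regions. The endothelial sum was 17.1 to 32.1 in intact females, 9.85 to 16.46 in hypox females and 15.07 to 16.02 in untreated hypox males. Every intact pool thus lay above every untreated hypox pool, as for Cux2 +23.6 kb below. The GH 240 min pools had 9.005 and 21.5, on both sides of the lowest intact value. Of the 6 endothelial regions tested by limma between intact and hypox females, 0 passed. All intact pools and no hypox female pool called 3 of 32 endothelial regions, against 4.69% of all regions, as for Cux2 +51.0 kb below. Against all hypox libraries this held for 0 of 37. The part of cholangiocytes or endothelial cells in the results below was not tested. The share of cells of each type was not measured, so fewer cells with an open region and less opening per cell cannot be told apart.

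Open chromatin at the 4 genes lay mostly in introns. Of the 28 regions, 4 were at promoters (within 1 kb of the gene start), 3 were farther upstream, all at Onecut2, and 21 had their summit in an intron. Just 3 were called in all 14 libraries, 1 each at Cux2 (+23.6 kb), Onecut1 (+5.0 kb) and Onecut2 (+10.3 kb), while 7 were called in 1 library only. Trim24 had no region called in all 14, since its promoter peak was missing from intact female pool 3. The Cux2 promoter was called in a single library, GH 240 min pool 1, at 200 bp wide, although the gene held 8 intronic regions. In the authors' lists called on pooled libraries it appeared for intact females, hypox females, untreated hypox males and GH 240 min. The combined list that the authors called for the pooled intact females, with 68187384 tags, held all 28 regions. Those of the hypox groups, with 28472456 to 51119876 tags, held 12 to 16, and these depths differ.

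**Figure D1:**
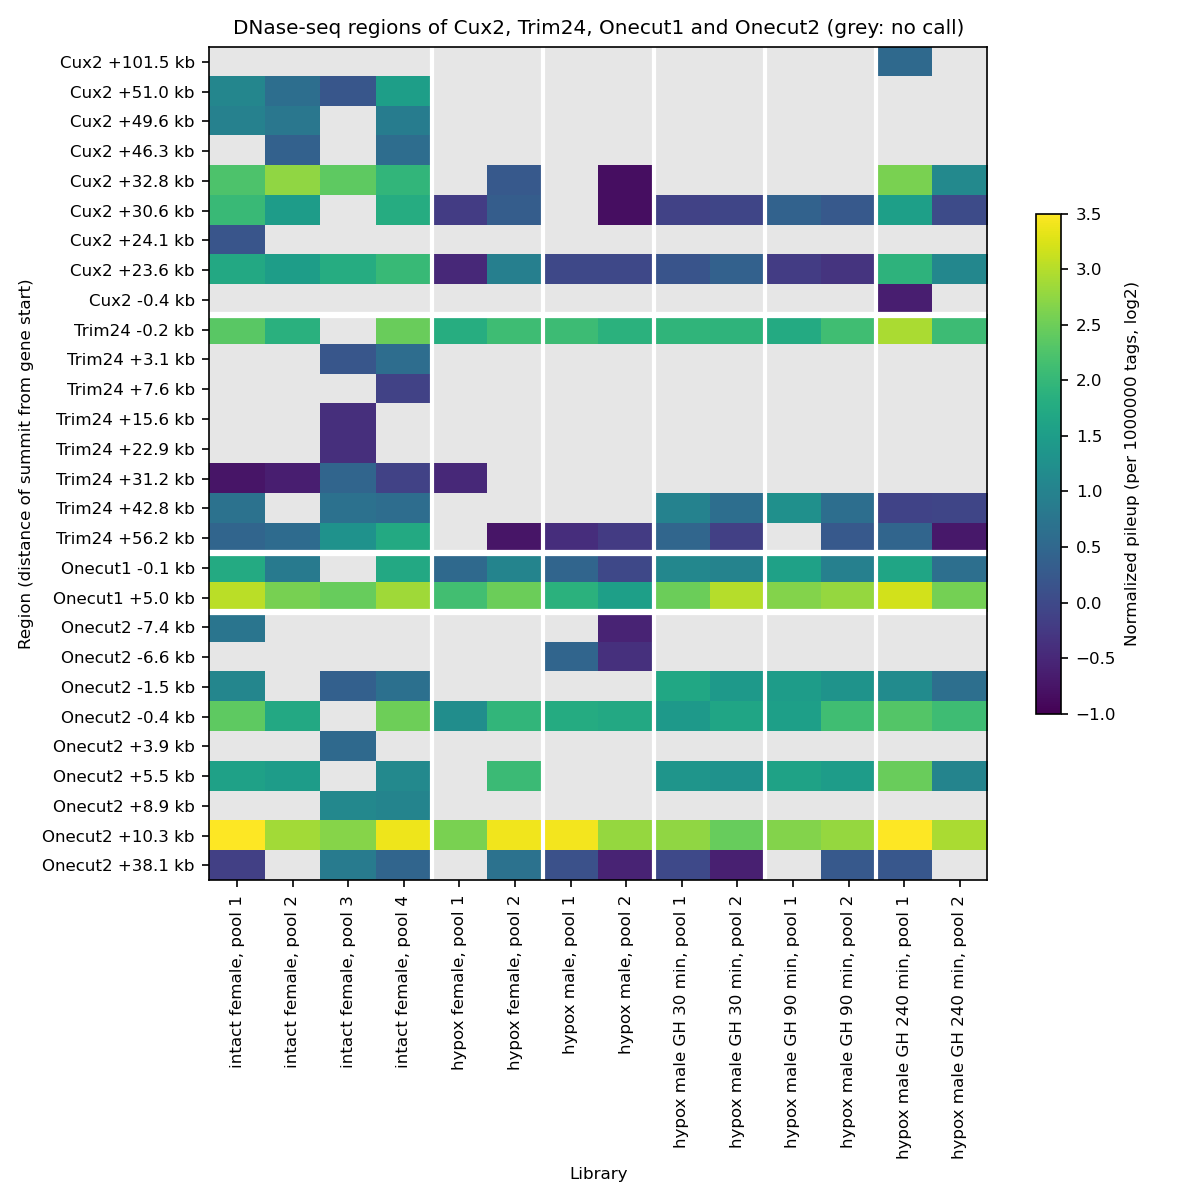
Log2 normalized pileup (per 1000000 tags) (colour) at the 28 regions (rows, named by gene and distance of the summit from the gene start in kb) in the 14 libraries (columns, by group and pool), with grey where no peak was called. Cux2 +51.0 kb is filled in the 4 intact female columns alone, while Onecut1 +5.0 kb and Onecut2 +10.3 kb are filled in all 14.

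At Cux2 (chr5:122308396-122500111, minus strand, 191.7 kb) no single intact pool called the promoter or +101.5 kb. Among single libraries each was called in GH 240 min pool 1 alone, while the combined intact list held both, at 0.499 and 0.425. Mean normalized pileup was highest in intact females at every region from +23.6 to +51.0 kb. On the authors' fold enrichment this order did not hold throughout: GH 240 min exceeded intact females at +32.8 kb (mean 10.15 against 8.90) and at +23.6 kb (12.77 against 11.44), and GH 90 min did at +30.6 kb (7.22 against 5.49). The strongest regions lay 23.6 to 51.0 kb into the gene. Region +51.0 kb (chr5:122448792-122449301) had normalized pileup of 2.09, 1.54, 1.15 and 2.88 in the 4 intact pools, with a mean of 1.92 ± 0.75 (SD, n = 4), and was called in none of the 10 hypox libraries. Its lowest intact value was more than the lowest called pileup of every hypox library. That lowest pileup comes from any region and sets no threshold here, since a call also depends on local background. The region was also missing from all 5 combined lists of hypox groups. It was the only 1 of 25 member regions called in all 4 intact pools and neither hypox female pool, against 4.69% of the regions tested for this in the whole series. Against all 10 hypox libraries it was 1 of 28, against 0.962% of all regions, and 0 of 28 when a peak had to cover 50% of its merged region. The opposite class, present in both hypox females and absent from intact females, held 0 member regions and 0.678% of all regions. With all 10 hypox libraries it held 0 members and 0.0727% of all regions. The neighbouring region +49.6 kb was called in 3 intact pools, at 1.97, 1.72 and 1.86, and in no hypox library, so without intact female pool 3 it joined +51.0 kb in this class, as 2 regions against hypox females and 2 against all hypox. Region +46.3 kb was likewise called in intact pools 2 and 4, at 1.31 and 1.53, and nowhere else.

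Region +32.8 kb (chr5:122466777-122467680), which holds the CUX core, had normalized pileup of 4.73, 6.77, 5.20 and 3.90 in intact females, a mean of 5.15 ± 1.21 (SD, n = 4). Among untreated hypox libraries it was called in hypox female pool 2, at 1.20, and in hypox male pool 2, at 0.564. It was called in no library at 30 or 90 min after GH and in both at 240 min, at 6.01 and 2.18. The called hypox values without GH lay below every intact value, and GH 240 min pool 1 lay within the intact range. These values are not centred, and that pool had the highest median normalized pileup of all libraries (4.34). Because the region had no call in 6 libraries, its level was not tested.

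Region +30.6 kb (chr5:122469322-122469905), with the STAT5 and HNF6 cores, was called in 3 intact pools at 4.13, 2.79 and 3.43. The 2 hypox female pools had 0.870 and 1.26, and 1 of the 2 hypox male pools had 0.564. All 6 GH libraries called it, at 0.934 and 0.956 at 30 min, 1.34 and 1.20 at 90 min, and 2.90 and 1.02 at 240 min. The intact values did not overlap those of untreated hypox livers, whereas the GH 240 min pools fell on both sides of the gap. These values are not centred, and the pool above it, GH 240 min pool 1, had the highest median normalized pileup of all libraries (4.34). The authors' fold enrichment did not separate the groups, with 3.85 to 6.90 in intact and 4.31 and 5.45 in hypox females. The summit lay a median of 19.5 bp from the STAT5 core (2 to 34 bp) in the 6 GH libraries, and 9 to 35 bp in the 6 other libraries that called it. The level in GH libraries was 0.24 higher than in hypox females on the log2 scale (SE 0.25, limma adjusted p = 0.656), an estimate with an error as large as itself.

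Region +23.6 kb (chr5:122476260-122477095) was called in all 14 libraries and so could be tested. Its normalized pileup was 3.29, 2.85, 3.44 and 4.08 in intact females, 0.725 and 1.92 in hypox females, and 0.976 and 0.979 in hypox males. After GH it was 1.13 and 1.31 at 30 min, 0.873 and 0.803 at 90 min, and 3.76 and 2.11 at 240 min. Every intact pool thus lay above every untreated hypox pool, and the 240 min pools lay above all other hypox males. With libraries centred on their median over regions called in all 14, it was 1.35 higher in log2 in intact than in hypox females (SE 0.28, limma with Benjamini-Hochberg adjustment over 9090 regions, adjusted p = 0.00343, higher in 4 of 4 pools). It was the 1 member region of 3 tested there that passed, in a comparison where 11.4% of regions rose and 10.1% fell. Without hypox female pool 1 the difference was 0.83 (adjusted p = 0.113). Here and in the other fits without 1 of 2 pools, the lone pool is assumed to vary as the other groups do.

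The same region was 1.51 higher in log2 at 240 than at 90 min after GH (SE 0.32, limma adjusted p = 0.0137), where 0.707% of 14564 regions rose and 2.33% fell. Leaving out any 1 of these 4 libraries gave an adjusted p of 0.0614 to 0.147 with a difference of 1.48 to 1.54, so the size held while the call did not. Against untreated hypox males the 240 min level was 1.09 higher (SE 0.32, limma adjusted p = 0.107) and against 30 min 0.87 higher (SE 0.32, adjusted p = 0.203), a comparison in which 0.162% of regions rose and 1.68% fell. Neither passed. Between 30 and 90 min no region of the 4 genes passed the limma test, and 0 of 15329 regions in all did, with 799 at an unadjusted p under 0.05. The GH comparisons with untreated males share the same 2 control pools.

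The number of Cux2 regions called per library was 5.25 ± 1.5 (SD, n = 4) in intact females, from 3 to 6, and 2.5 on average over the 10 hypox libraries. The difference of 2.75 had an exact two-sided permutation p of 0.00500, where the smallest possible is 0.000999, but the value adjusted over all genes was 0.206. These hypox libraries are 8 male and 2 female. Against the hypox females alone the difference was also 2.75, with an exact permutation p of 0.133, where the smallest possible is 0.0667. Of 13919 genes, 9.19% had an unadjusted p under 0.05 in that comparison and none passed after adjustment.

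**Figure D2:**
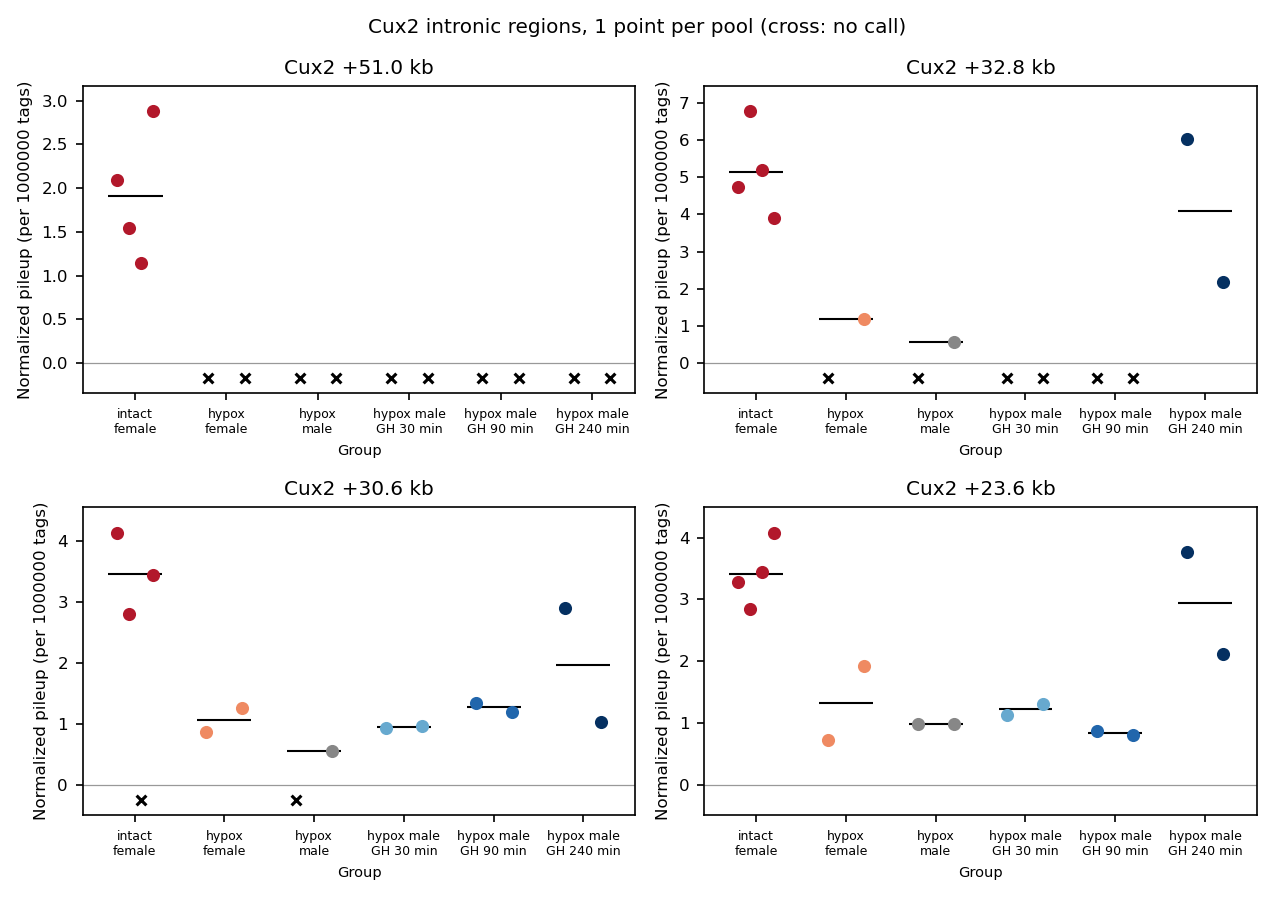
Normalized pileup (per 1000000 tags) (vertical axis) at 4 intronic Cux2 regions in the 6 groups (horizontal axis), with 1 point per pool, a bar at the mean of the pools with a call, and a cross below 0 for each pool without one. At +51.0 kb only the 4 intact female pools have points (1.15 to 2.88), and at +23.6 kb the GH 240 min pools (3.76 and 2.11) sit above the other hypox males (0.803 to 1.31).

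Trim24 (chr6:37820811-37916296, plus strand, 95.5 kb) had a promoter region that passed no test and an intronic region whose calls separated GH from no GH in hypox livers. The promoter region, -0.2 kb (chr6:37820343-37821337), had normalized pileup of 3.38 to 7.60 in the 13 libraries that called it. Its largest log2 difference among the comparisons with untreated hypox livers was 0.22 to 0.23 in size, with standard errors of 0.25 (hypox male against hypox female, and GH 90 min against hypox male), and no comparison passed the limma test.

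Region +42.8 kb (chr6:37863524-37864044), which carries the STAT5 match TTCTTAGAA, was called in all 6 GH libraries and in none of the 4 untreated hypox libraries. Normalized pileup was 2.00 and 1.55 at 30 min, 2.39 and 1.54 at 90 min, and 0.941 and 0.955 at 240 min after GH. It was 1.62, 1.61 and 1.53 in the 3 intact female pools that called it. The 30 and 90 min values therefore overlapped the intact range, and both 240 min values lay below all others. The region was absent from the combined lists of hypox females and of hypox males, which held 30451611 and 51119876 tags. The log2 difference of 240 from 90 min was -1.26 (SE 0.35, limma adjusted p = 0.0622), and that of 240 from 30 min was -1.23 (SE 0.35, limma adjusted p = 0.0915). Neither passed, although both late values were lower than all 4 earlier ones.

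Region +56.2 kb (chr6:37876772-37877330) was called in all intact pools, at 1.38, 1.48, 2.45 and 3.34. In the 8 hypox libraries that called it, values ran from 0.601 to 1.40, with a median of 0.879. The groups overlapped at their edges, where the lowest intact pool (1.38) lay below the highest GH 30 min pool (1.40). Region +31.2 kb was called in all 4 intact pools, at 0.598 to 1.38, and in hypox female pool 1 at 0.725. No single male library called it, but the combined lists of untreated hypox males (0.430) and of GH 30 min (0.536) did. The number of Trim24 regions per library was 4.75 ± 1.5 (SD, n = 4) in intact females and 2.5 on average in hypox libraries (exact permutation p = 0.00599, adjusted over all genes 0.219). Against the 2 of hypox females alone the exact permutation p was 0.133. With GH it averaged 2.83 against 2 without (exact permutation p = 0.0476, adjusted 1, where 2.9% of genes had an unadjusted p under 0.05).

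Onecut1 (chr9:74709728-74737591, plus strand, 27.9 kb) held its promoter region and a region at +5.0 kb (chr9:74714028-74715079), which was called in every library. The summit of +5.0 kb lay in an intron, and the region also reached an annotated Onecut1 exon. Both overlap the annotated gene Gm16551, whose reads cannot be separated here. At +5.0 kb normalized pileup was 8.20, 5.94, 5.51 and 7.28 in intact females, 4.42 and 5.59 in hypox females and 3.67 and 2.91 in untreated hypox males. After GH it was 5.60 and 8.01 at 30 min, 6.35 and 6.89 at 90 min and 9.19 and 5.93 at 240 min. Every GH library lay above every untreated hypox library, and the hypox males were lowest of all. GH libraries together were 0.83 higher in log2 than untreated hypox males (SE 0.21, limma adjusted p = 0.0272, higher in 6 of 6). In that comparison 3.11% of 12571 regions rose and 1.96% fell. The times after GH were joined as a single group there, so the error also holds differences between times. At 30 min the difference was 0.93 (SE 0.26, limma adjusted p = 0.0387), where 4.51% of 14656 regions rose and 1.83% fell. At 90 min it was 0.82 (limma adjusted p = 0.0611), where 4.89% of regions rose and 3.17% fell, and at 240 min 0.74 (limma adjusted p = 0.184), where 0.447% rose and 0.278% fell. Against hypox females, which share the library code but not the sex, the GH libraries were 0.43 higher (SE 0.21, limma adjusted p = 0.289). This did not pass, in a comparison where 0.967% of 11787 regions rose and 0.458% fell.

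The rise at Onecut1 +5.0 kb appeared on only 1 of the 2 scales. The authors' fold enrichment was 7.56 and 8.78 in hypox males, 7.64 and 11.4 at 30 min, 7.16 and 7.48 at 90 min and 11.05 and 9.71 at 240 min after GH, so the groups overlapped. On the log2 scale of fold enrichment, GH differed from no GH in males by -0.02 (limma adjusted p = 0.984) over all times and by 0.08 (adjusted p = 0.931) at 30 min. The call over all GH times was also lost without hypox male pool 1 (adjusted p = 0.255), hypox male pool 2 (0.283) or GH 90 min pool 2 (0.0510), with differences of 0.83, 0.81 and 0.82 that were close to the value from all pools. The call at 30 min was lost without either hypox male pool (differences of 0.93 and 0.91, adjusted p = 0.198 and 0.224 by limma) or GH 30 min pool 2 (0.56, adjusted p = 0.320). It was also lost when libraries were not centred, with a difference of 1.04 (limma adjusted p = 0.225). The promoter region, -0.1 kb, behaved likewise. Its normalized pileup was 1.38 and 0.979 in untreated hypox males and 1.57 to 3.11 in the 6 GH libraries, a log2 difference of 0.70 (SE 0.23, limma adjusted p = 0.0876), while its fold enrichment differed by -0.18 (adjusted p = 0.748).

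**Figure D3:**
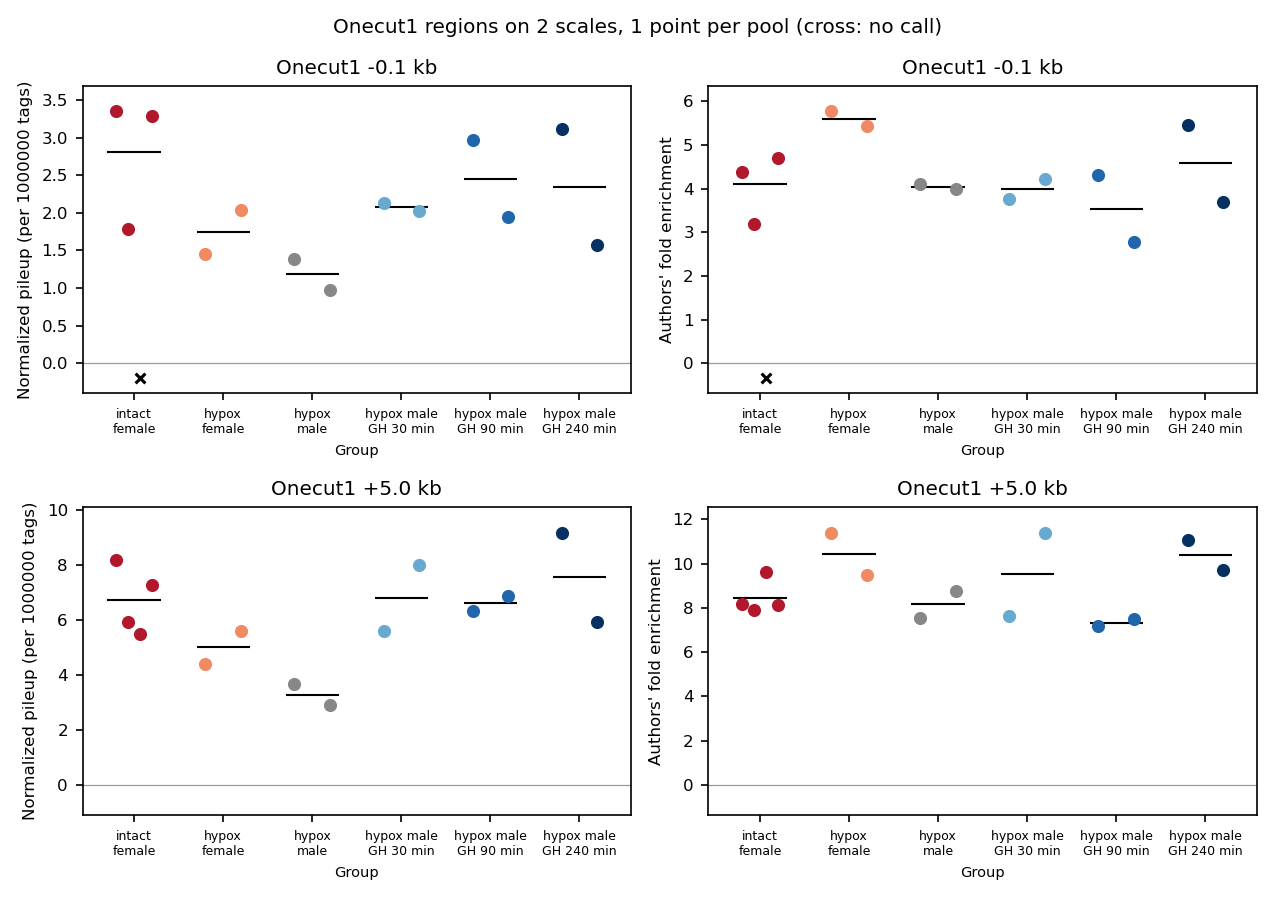
The 2 Onecut1 regions (rows) as normalized pileup (left) and as the authors' fold enrichment (right) in the 6 groups, with 1 point per pool, a bar at the mean of the pools with a call, and a cross for a pool without one. At +5.0 kb the hypox male pools are lowest on the left (2.91 and 3.67) but lie among the GH pools on the right (7.56 and 8.78 against 7.16 to 11.4).

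Onecut2 (chromosome 18, plus strand, 60.6 kb) combined regions called in nearly every library with others whose calls moved with GH. Region +10.3 kb had the highest mean normalized pileup of all 28 over all libraries, although Onecut1 +5.0 kb was higher at GH 30 min (6.81 against 6.12) and Trim24 -0.2 kb had the higher mean fold enrichment (12.09 against 12.05). It had normalized pileup of 5.498 to 12.0 over the 14 libraries. Its highest values were in GH 240 min pool 1 (12.0), intact female pool 1 (11.7) and hypox male pool 1 (10.7), so high and low pools occurred within single groups. GH libraries lay 0.49 lower in log2 than untreated hypox males (SE 0.20, limma adjusted p = 0.172), which did not pass. The promoter region, -0.4 kb, was called in 13 libraries at 2.32 to 5.71 and passed in no comparison.

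Region -1.5 kb had the pattern of Trim24 +42.8 kb. It was called in all 6 GH libraries, at 3.20 and 2.69 at 30 min, 2.79 and 2.48 at 90 min and 2.24 and 1.57 at 240 min, in no untreated hypox library, and in 3 intact pools at 2.09, 1.30 and 1.58. Values at 30 and 90 min lay above every intact value, and those at 240 min overlapped them. The log2 difference of 240 from 30 min was -0.98 (SE 0.29, limma adjusted p = 0.101), which did not pass. The region holds a STAT5 core, a median of 17.5 bp from the summit in the GH libraries (0 to 57 bp). In the 3 intact pools that called it the median was 23 bp (11 to 81 bp). In Trim24 +42.8 kb those distances were 34.5 bp (25 to 93 bp) and 31 bp (25 to 128 bp).

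Region +5.5 kb was called in every GH library, at 2.05 to 5.57, and in no untreated hypox male library, but also in hypox female pool 2, with a value among those of the GH libraries. Region -6.6 kb went the other way: it was called in both untreated hypox males, at 1.38 and 0.772, and in no other single library. The authors' combined lists, called on the pooled libraries of a group, also held it at GH 30 min (0.693) and in intact females (0.704), beside 0.959 in untreated hypox males. At GH 240 min they held it too (0.808), but with the same value at -7.4 kb, so a single peak may span both regions. By single libraries -6.6 kb was the 1 of 14 member regions called in both hypox male and neither hypox female pool, against 4.86% of all regions. The reverse held for none (0.684% of all regions). No member passed the limma test between hypox males and females, where 0.00671% of 14893 regions rose and 0.0134% fell.

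In counts, 3 member regions (Trim24 +42.8 kb, Onecut2 -1.5 kb and Onecut2 +5.5 kb) were called in both pools at each GH time and in neither untreated hypox male pool. They were 3 of 15 member regions at 30 min, against 4.97% of all regions, 3 of 15 at 90 min, against 5.57%, and 3 of 17 at 240 min, against 2.61%. Onecut2 -6.6 kb, which the combined lists at 30 and 240 min did hold, was the 1 region in the opposite class at each time, against 8.3%, 7.5% and 3.97% of all regions. Over all 6 GH libraries the 3 regions stood against 0.969% and the opposite class against 1.72%. These comparisons share their control pools. With hypox females as controls, Trim24 +42.8 kb and Onecut2 -1.5 kb remained, as 2 of 16 member regions against 0.767%, and 0 member regions were in the opposite class, which held 0.454%. Against all 4 untreated hypox libraries these 2 of 18 stood beside 0.397% of regions, 154 in all, and 0 in the opposite class, which held 0.142%. With only peaks of −log10 p of at least 10 counted, 0 member regions separated all GH libraries from either or both sets of untreated hypox libraries. Of those 154 regions, 66.2% held a STAT5 core within 200 bp around the summit, as both of these member regions do.

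**Figure D4:**
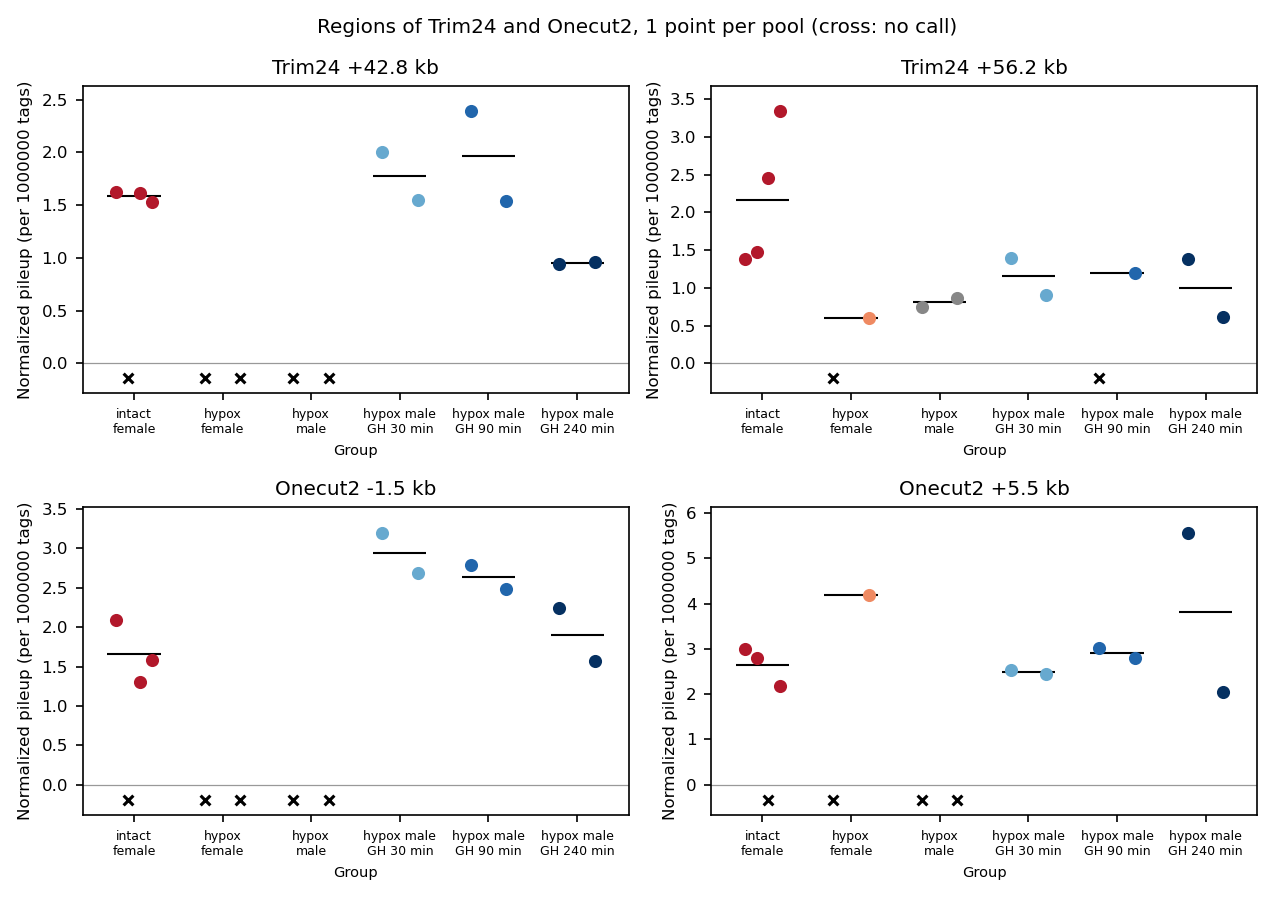
Normalized pileup (per 1000000 tags) (vertical axis) at 2 Trim24 and 2 Onecut2 regions in the 6 groups (horizontal axis), with 1 point per pool, a bar at the mean of the pools with a call, and a cross below 0 for each pool without one. Trim24 +42.8 kb and Onecut2 -1.5 kb have points in all 6 GH pools and crosses in all 4 untreated hypox pools, and their 240 min points (0.941 and 0.955, and 2.24 and 1.57) are the lowest of the GH pools.

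The genes around these 4 in the same pathway were counted in the same way. All 16 GH signalling genes had regions, and 11 had 1 in every library. Of their regions tested against untreated hypox males, 5 of 34 rose and 1 fell at 30 min, 8 of 33 rose and 3 fell at 90 min, and 1 of 32 rose and 0 fell at 240 min. Over all regions the shares were 4.51% and 1.83%, 4.89% and 3.17%, and 0.447% and 0.278%. Those that fell at 30 and 90 min all belonged to Ghr, which encodes the GH receptor. Those that rose at 30 min belonged to Cish, Socs2 and Socs3, which encode feedback inhibitors of GH signalling, and to Igf1. The 1 that rose at 240 min belonged to Cish. Medians over these regions were -0.06, 0.21 and -0.22 in log2, beside -0.14, -0.05 and -0.12 over all regions tested. One region of Socs2 of 79 and 1 of Nr5a2 of 91 liver transcription factor regions shared the class of Trim24 +42.8 kb, called in every GH library and in no untreated hypox library, against 0.397% of all regions.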

How the data were processed

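DNase-seq was measured in 14 liver libraries. The submitters' processing notes name Bowtie2 and the mouse build mm9. According to the file headers, MACS2 2.1.0.20150731 called the peaks with no control library, at q 0.05, keeping duplicates, shifting tags of 40 bp by -100 bp and extending them by 200 bp. Lists for each library and combined lists for groups were deposited. Columns used are the summit pileup signal, the fold enrichment (a ratio to local background) and the −log10 p value, all as deposited by the authors.

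Genes came from GENCODE vM1 on the same build, and 0 peaks reached past a chromosome end. A region counted as called where a peak shared at least 1 bp with it, on autosomes and X. Pileup per 1000000 tags (normalized pileup) was put on the log2 scale and centred on each library's median over regions called in all 14. Regions called in every library of both sides were tested with limma 3.58.1 (R 4.3.3), fitted over all such regions with Benjamini-Hochberg adjustment at 0.05. Regions called on 1 side only were counted without a test. Numbers of regions per gene were compared by exact two-sided permutation. Scripts were tested on simulated data.

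Regions of the 4 genes and lists of GH signalling genes, liver transcription factors and cell type markers were named; a list of relatives is not reported here. For each gene the 3 protein-coding genes most like it over the libraries were named as well, among those with a call in at least 7. Members and lists were chosen with earlier results of these data known, and comparisons between GH times were added to the planned ones. Livers were pooled, so p-values measure the spread between pools. Where groups were joined (all GH, untreated hypox or all hypox), that spread also holds the differences between the joined groups. Pool numbers did not pair the libraries: deviations from group means correlated at -0.13 to 0.15 in 10 same-numbered pairs, and 2 exceeded 0.1. Alternatives covered peak strength, list length, overlap, upstream window, library code, centring, scale, spread prior and single libraries. Depth gives no interval for a call. Sequence from chromosome 18 is not shown.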

Additional observations from a re-analysis of the deposited data

Results flagged for a closer look

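The 4 intact female pools were checked for a single pool far from the others in 18 sets of values. Such a check flags about 1 in 20 groups of continuous values by chance, and 3 sets were flagged. Those flagged for numbers of regions had ties among all other pools. Any differing pool then gives a gap of 1, so this rate does not hold for them. At Onecut1 +5.0 kb, the authors' fold enrichment was 9.63 in pool 3 and 7.89 to 8.18 in the other pools, so the gap to the nearest pool was 0.833 of the whole range, just past Dixon's critical value at 95%. The number of Cux2 regions was 3 in pool 3 and 6 in each other pool, which gives a gap of 1 of the whole range. The number of Onecut1 regions was 1 in pool 3 and 2 in each other pool, again a gap of 1. Pool 3 is the library whose missing regions were mostly at promoters. At Onecut1 the region it lacked was the promoter, -0.1 kb. At Cux2 no intact pool called the promoter, and pool 3 lacked the intronic regions +49.6 and +30.6 kb that each other pool called. For the fold enrichment at Onecut1 +5.0 kb, the part of the missing promoters was not tested.

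The level of Cux2 +23.6 kb differed between times after GH, by 1.51 in log2 between 240 and 90 min (limma adjusted p = 0.0137, both 240 min pools above both 90 min pools). GH 240 min pool 1, which had the highest median normalized pileup, had 3.76 and pool 2 had 2.11, against 0.873 and 0.803 at 90 min. On the authors' fold enrichment, centred in the same way, the difference was 1.15 (limma adjusted p = 0.0271). Without pool 1 it was 1.48 in pileup (adjusted p = 0.147, limma).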

How the results depend on the processing

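Calls on 1 side alone moved with the rules, as counts of 0 to 3 regions do; the cause was not tested. With only peaks of −log10 p of at least 10, regions called with all GH and not in the controls numbered 0 against hypox males, hypox females or all untreated hypox (3, 2 and 2 before). At 240 min they numbered 1, and the opposite class, 1 before, numbered 0 at 30 and 240 min and over all GH, as did the male class between sexes. With lists of equal length the all-GH counts were 1, 0 and 0, the opposite class was 0 at 30 and 240 min and over all GH, and between sexes the male class was 0 and the female class 1. Without the upstream window they were 1 against hypox females and 1 against all untreated hypox, with 0 in each class that held Onecut2 -6.6 kb. Intact against hypox females gave 2 regions with strong peaks, equal lists, code G92 only, peaks covering 50% of the region, or without both libraries that stand apart. Intact against all hypox gave 2 with G92 or without those libraries, and 0 with peaks covering 50%, a rule added after seeing the data along with the removal of both libraries. That overlap rule also gave 1 against hypox females and 1 against all untreated hypox with all GH, and 0 opposite to GH at 30 and 90 min and over all GH. Without both apart libraries 2 regions stood opposite to GH 240 min. Demanding 50% of the narrower of peak and region changed nothing, since a peak lies inside its merged region.

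Leaving out 1 library gave 1 to 3 regions for intact against hypox females (3 without intact pool 2 or hypox female pool 2), 1 to 2 against all hypox, 1 to 3 for hypox males (3 without hypox female pool 2) and 0 to 1 for hypox females between sexes, 3 to 5 at 240 min (5 without hypox male pool 2 or GH pool 2), 1 to 3 opposite to GH at 30 and 90 min (3 without hypox male pool 1), 1 to 2 at 240 min and 1 to 2 over all GH, and 0 to 1 in the class of hypox females against all GH. The difference in Cux2 regions between all GH and untreated hypox turned from 0.42 to -0.05 without GH 240 min pool 1 and also without both apart libraries, and reached 0.67 without hypox female pool 2. That in Onecut2 regions between intact and all hypox turned from 0.7 to -0.4 with strong peaks and -0.7 with equal lists.

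Of limma calls among members, the 1 for intact against hypox females became 0 with strong peaks, 2 with G92 only and 1 to 2 without 1 library. The 1 at GH 30 min became 0 without centring, with fold enrichment, and 0 to 1 without 1 library. The 1 for all GH became 0 with fold enrichment and 0 to 1 without 1 library. The 1 for 240 over 90 min became 0 with strong peaks and 0 without any of its 4 libraries. Uncentred values gave 1 region higher at GH 240 min, where centring shifts all differences by 0.44 in log2. With fold enrichment Onecut1 -0.1 kb reversed to -0.14, -0.34 and -0.18 at 30 min, 90 min and over all GH, and Onecut1 +5.0 kb to -0.27 at 90 min and -0.0155 over all GH. With a replicate block on pool number, which is only a number here, there were 2 regions higher at each of 90 and 240 min, 1 lower at each of 30 and 90 min against hypox males, 2 lower at 240 than at 30 min and 1 lower at 240 than at 90 min; with G92 only those last counts were 2 and 1. Depth limits what an absent call can say: the lowest called normalized pileup was 0.386 in the deepest library and up to 0.546 in others.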

Other observations

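Across the 14 libraries, the genes whose share of summed pileup ran most like that of each of the 4 were looked up among 11568 genes. The libraries share depth differences and groups, so these values are descriptions. For Cux2 they were D630023F18Rik and Cryga, both with Pearson r = 0.94, and Cep152, also with r = 0.94. For Trim24 they were Zdhhc19 (r = 0.89), Lifr (r = 0.88), which encodes the receptor for leukemia inhibitory factor, and Stx1a (r = 0.87). For Onecut1 they were Kcnk3 (r = 0.81), Snai3 (r = 0.80) and Polg (r = 0.79), the last encoding the mitochondrial DNA polymerase. For Onecut2 they were Bag1 (r = 0.80), Wasf2 (r = 0.78) and Zfp770 (r = 0.77).

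Weak regions of Trim24 and Onecut2 were called in few libraries. Trim24 +15.6 kb and +22.9 kb were called in intact female pool 3 alone, Trim24 +7.6 kb in intact female pool 4 alone, and Onecut2 +3.9 kb in intact female pool 3 alone. Trim24 +3.1 kb and Onecut2 +8.9 kb were called in intact female pools 3 and 4, the 2 libraries of code G93, and in no other library. Cux2 +101.5 kb, which holds a CUX core and 2 HNF6 cores, was called in GH 240 min pool 1 alone among single libraries.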
